A study of Mus musculus with 12 samples.

Results

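The dual-specificity MAP kinase phosphatases described here were the 10 rows of the deposited 3T9 table with the symbols Dusp1, Dusp2, Dusp4, Dusp5, Dusp6, Dusp7, Dusp8, Dusp10, Dusp14 and Dusp16, of 21671 rows in all. They had been chosen by their values in OHT, dox and OHT+dox against mock, so those values describe them and test nothing. RNA was sequenced from serum-starved, confluent 3T9 cells, a mouse embryonic fibroblast line that grows without limit in culture. All cells, mock ones included, carried MycER, a Myc protein that 4-hydroxytamoxifen (OHT) switches on, and, by the study's methods, a retroviral vector for YAP S127A, a YAP mutant that escapes the Hippo kinases and is made when doxycycline (dox) is present. The 4 groups of 3 libraries received 400 nM OHT with 2 µg/ml dox (OHT+dox), 400 nM OHT (OHT), 2 µg/ml dox (dox), or neither (mock, labelled CTRL). The cells came from transduction and hygromycin selection, and dox in cells without the vector is not analysed here, so YAP S127A and dox itself cannot be told apart. OHT in cells without MycER is not analysed here either, so MycER activity and OHT itself cannot be told apart. The replicates are not stated to be separate cultures, so a p-value reflects how far these libraries vary, and that may be technical.

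MAP kinases (ERK, JNK and p38) relay growth factor and stress signals and are active only while a threonine and a tyrosine in their activation loop carry phosphate. Dual-specificity phosphatases remove both phosphates. Several of these phosphatases are transcribed in response to the kinases they switch off and so act as feedback brakes. They differ in location and in preferred kinase: Dusp1, Dusp2, Dusp4 and Dusp5 are inducible nuclear enzymes, Dusp6 and Dusp7 are cytoplasmic and prefer ERK, Dusp8, Dusp10 and Dusp16 prefer JNK and p38, and Dusp14 is a small enzyme without the MAP kinase-binding domain of the others.

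The deposited table gives means over pairs of groups, not values per library. Each mean covers the 3 libraries of a treatment and the 3 mock libraries, and is printed to 10 digits. The whole read counts of the 12 libraries behind these digits could be recovered for 9189 of 9209 genes with a mean above 0 and up to 150 (99.8%), as the processing notes describe. Where several sets of counts match, the search favours those whose replicates lie close together, so a spread may be understated. This gave values per library for Dusp2, Dusp4, Dusp5 and Dusp8, which were tested. Dusp10 was also recovered, but lay above that limit and only just reached the probability needed (0.991 against 0.99), so its values are less sure and were not tested. Dusp1, Dusp6, Dusp7, Dusp14 and Dusp16 were not recovered and have only the authors' pooled means, with no error and no test. Values are normalized reads, that is, reads divided by the size factor of the library. Size factors ranged from 0.831 to 1.16, so by these depth was similar between libraries. The sums of the pooled means ran from 8184510 to 8299686, but they are of normalized reads and do not show depth. Libraries of a group are numbered here by size factor, from the lowest, because nothing ties them to the replicate numbers of the labels.

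As a check of the labels, the YAP target Ankrd1 had 24.5, 27.0 and 46.2 normalized reads in the OHT+dox libraries and 6.01, 8.90 and 18.1 in the OHT libraries. It had 57.2, 71.4 and 70.6 in the dox libraries, against 31.4, 24.6 and 26.6 in the mock libraries. Ankrd1 was thus higher with dox both with and without OHT. The OHT+dox libraries overlapped with the mock libraries (log2 fold change 0.18, adjusted p = 0.696 from limma), and every OHT library lay below every mock one. Of the Myc targets, Ncl was at least 1.23-fold and Nop56 at least 1.12-fold higher with OHT than with dox by the pooled means, while Odc1 was at least 1.13-fold lower. The YAP targets Ctgf and Cyr61 were at least 1.42-fold and 1.19-fold lower with OHT than with dox. Among fibroblast markers, the pooled means of 7 of 8 lay at or above 2587 (Vim), and that of Thy1 at or under 0.499. Of the markers of adipocytes, muscle, endothelium, epithelium and macrophages, Cd68, which many cell types express, had pooled means of 37.4 to 41.3, and every other one at most 6.07.

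The promoter sequences of the 3 phosphatase genes that passed a test below are shown first, because they differ in the motifs they hold. RefSeq (GRCm38.p6) gave the 250 bases before the gene start for 9 of the 10 members, all but Dusp4. Capitals mark matches to the E-box CACGTG, which Myc and its partner Max bind, or to the cyclic AMP response element TGACGTCA (CRE).

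Dusp2, chr2:127335909-127336158, plus strand: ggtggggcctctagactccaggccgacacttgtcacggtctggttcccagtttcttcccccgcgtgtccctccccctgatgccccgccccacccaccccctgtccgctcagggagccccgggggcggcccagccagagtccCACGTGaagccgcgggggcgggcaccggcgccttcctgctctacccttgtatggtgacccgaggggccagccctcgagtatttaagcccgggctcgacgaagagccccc

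Dusp5, chr19:53528895-53529144, plus strand: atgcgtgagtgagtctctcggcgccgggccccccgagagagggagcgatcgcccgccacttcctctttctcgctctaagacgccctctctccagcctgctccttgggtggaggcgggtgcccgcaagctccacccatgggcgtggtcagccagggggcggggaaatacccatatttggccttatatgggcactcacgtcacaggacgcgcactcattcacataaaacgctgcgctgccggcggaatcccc

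Dusp8, chr7:142095285-142095534, minus strand: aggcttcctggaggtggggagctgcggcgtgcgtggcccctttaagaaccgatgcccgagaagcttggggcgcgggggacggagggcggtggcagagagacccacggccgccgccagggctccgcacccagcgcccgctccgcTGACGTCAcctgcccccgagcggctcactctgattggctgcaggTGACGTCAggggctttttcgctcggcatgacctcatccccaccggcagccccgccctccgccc

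The Dusp2 window held 1 E-box, starting at position -109 from the gene start, and the Dusp8 window held 2 CREs, at -107 and -63. Dusp1 held 1 of each, an E-box at -126 and a CRE at -143. The Dusp5 window held neither, and none of the 9 windows held the TEAD motif GGAATG or the AP-1 motif TGANTCA on either strand. Of 32851 RefSeq windows of the same length, 6.02% held the E-box, 1.55% the CRE, 12.6% the TEAD motif and 6.75% the AP-1 motif. These matches describe letters and not binding.

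Among the members tested, Dusp2 had the largest log2 fold change between treatments. Dusp2 encodes an inducible nuclear phosphatase, known mainly from immune cells, that acts on ERK and p38. It had 148, 114 and 225 normalized reads in the OHT+dox libraries and 77.0, 77.4 and 132 in the OHT libraries. In the dox libraries it had 14.8, 27.9 and 18.8, against 13.6, 17.7 and 15.6 in the mock libraries. Every library with OHT lay above every library without it, while OHT+dox overlapped with OHT and dox overlapped with mock. The means were 162 ± 57.0 with OHT+dox, 95.5 ± 31.7 with OHT, 20.5 ± 6.71 with dox and 15.6 ± 2.03 in mock (SD, n = 3 each). Against mock, the ratio of means was 10.4 with OHT+dox, 6.11 with OHT and 1.31 with dox. Dusp2 was higher with OHT+dox than with dox by a log2 fold change of 2.91 ± 0.29 (SE), adjusted p = 8.45e-05 from limma, and higher with OHT than with dox by 2.16 ± 0.29, adjusted p = 0.000606 from limma. Between OHT+dox and OHT, the log2 fold change was 0.75 ± 0.29 and did not pass (adjusted p = 0.262, and 0.119 to 0.593 over the other settings).

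Lyrm9, Cdc6 and Nav3 were the genes that followed Dusp2 most closely across the 12 libraries, among 1358 genes compared by Pearson's correlation of log2 values. These were recovered genes with pooled means up to 150 and a mean of at least 50 normalized reads. Genes with higher pooled means were not compared. The correlations were 0.988 for Lyrm9, 0.988 for Cdc6 and 0.986 for Nav3, and all points come from the same 12 libraries. Dusp2 was high in every library with OHT and low in every other one. These correlations therefore largely restate a difference between groups, and are no separate evidence of a link to Dusp2. Cdc6, which loads the replicative helicase onto DNA, averaged 188 normalized reads with OHT+dox, 144 with OHT, 59.7 with dox and 53.5 in mock. In the same order, Lyrm9 averaged 198, 162, 51.9 and 47.7, and Nav3 averaged 168, 143, 29.5 and 22.8. Nav3 reached the minimum mean of 50 only through the groups with OHT. Dusp1 and Dusp6 had no values per library and so no such comparison.

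Dusp5 had the opposite order between the single treatments. Dusp5 encodes a nuclear phosphatase that dephosphorylates ERK and little else. It had 68.1, 30.9 and 132 normalized reads in the OHT+dox libraries and 25.3, 39.2 and 43.2 in the OHT libraries. In the dox libraries it had 107, 111 and 131, against 66.0, 45.2 and 51.4 in the mock libraries. All dox libraries lay above all mock libraries and all OHT libraries below them, and the OHT+dox libraries spread over the whole range. The mean was 76.9 ± 50.9 with OHT+dox, 35.9 ± 9.40 with OHT, 116 ± 12.9 with dox and 54.2 ± 10.7 in mock (SD, n = 3 each). Against mock, the ratio of means was 1.42 with OHT+dox, 0.662 with OHT and 2.14 with dox. The first of these has no firm direction: on the log2 scale it was 0.28, and it was −0.22 without the third OHT+dox library and 0.81 without the second. Dusp5 was lower with OHT than with dox by a log2 fold change of −1.70 ± 0.39, adjusted p = 0.0141 from limma. OHT+dox differed from OHT by 0.88 ± 0.39 (adjusted p = 0.333) and from dox by −0.81 ± 0.39 (adjusted p = 0.201), and neither passed in limma. Both values depended on single OHT+dox libraries. Without the third, OHT+dox against dox was −1.31 and passed (adjusted p = 0.0319), and without the second it was −0.29 (adjusted p = 0.575), both from limma. OHT+dox against OHT was 0.38 without the third and 1.41 without the second (adjusted p = 0.707 and 0.0544). The third library was also the highest of its group for Dusp2, Dusp8 and Ankrd1 and the lowest for Dusp4, and what sets it apart was not tested. The lower level with OHT than with dox did not pass without the first OHT library (−1.47, adjusted p = 0.0610). The adjusted p of this comparison from limma ran from 0.000522 to 0.0772 over the other settings. It was 0.00403 with the groups compared only, where the wide spread of OHT+dox does not enter.

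Dusp4 varied little. Dusp4 encodes a nuclear phosphatase of ERK, JNK and p38. It had 119, 129.8 and 99.2 normalized reads in the OHT+dox libraries and 97.4, 104 and 116 in the OHT libraries. In the dox libraries it had 130.3, 141 and 131, against 136, 139 and 147 in the mock libraries. Every library with OHT lay below every library without it, and dox overlapped with mock. The mean was 116 ± 15.5 with OHT+dox, 106 ± 9.24 with OHT, 134 ± 5.79 with dox and 141 ± 5.48 in mock (SD, n = 3 each). Against mock, the ratio of means was 0.824 with OHT+dox, 0.751 with OHT and 0.951 with dox. Its log2 fold change was −0.21 ± 0.14 in OHT+dox against dox (adjusted p = 0.357) and −0.34 ± 0.14 in OHT against dox (adjusted p = 0.141), neither of which passed in limma. Over the other settings the adjusted p from limma ran from 0.232 to 0.718 in the first and from 0.0520 to 0.514 in the second.

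Dusp8, one of the phosphatases that prefer JNK and p38, had the same order between the single treatments as Dusp5, with a smaller difference. It had 68.1, 64.9 and 78.6 normalized reads in the OHT+dox libraries and 42.1, 53.4 and 53.5 in the OHT libraries. In the dox libraries it had 69.9, 75.5 and 84.8, against 61.8, 54.0 and 65.2 in the mock libraries. All OHT libraries lay below all others, and OHT+dox overlapped with dox and with mock. The mean was 70.5 ± 7.17 with OHT+dox, 49.7 ± 6.57 with OHT, 76.7 ± 7.49 with dox and 60.3 ± 5.74 in mock (SD, n = 3 each). Its ratio of means against mock was 1.17 with OHT+dox, 0.823 with OHT and 1.27 with dox. Dusp8 was lower with OHT than with dox by a log2 fold change of −0.62 ± 0.15, adjusted p = 0.0205 from limma. This call was lost without the first OHT library (−0.51, adjusted p = 0.0762) and without the third dox library (−0.55, adjusted p = 0.0809). OHT+dox differed from OHT by 0.50 ± 0.15, adjusted p = 0.140 from limma, although these groups did not overlap.

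**Figure D1:**
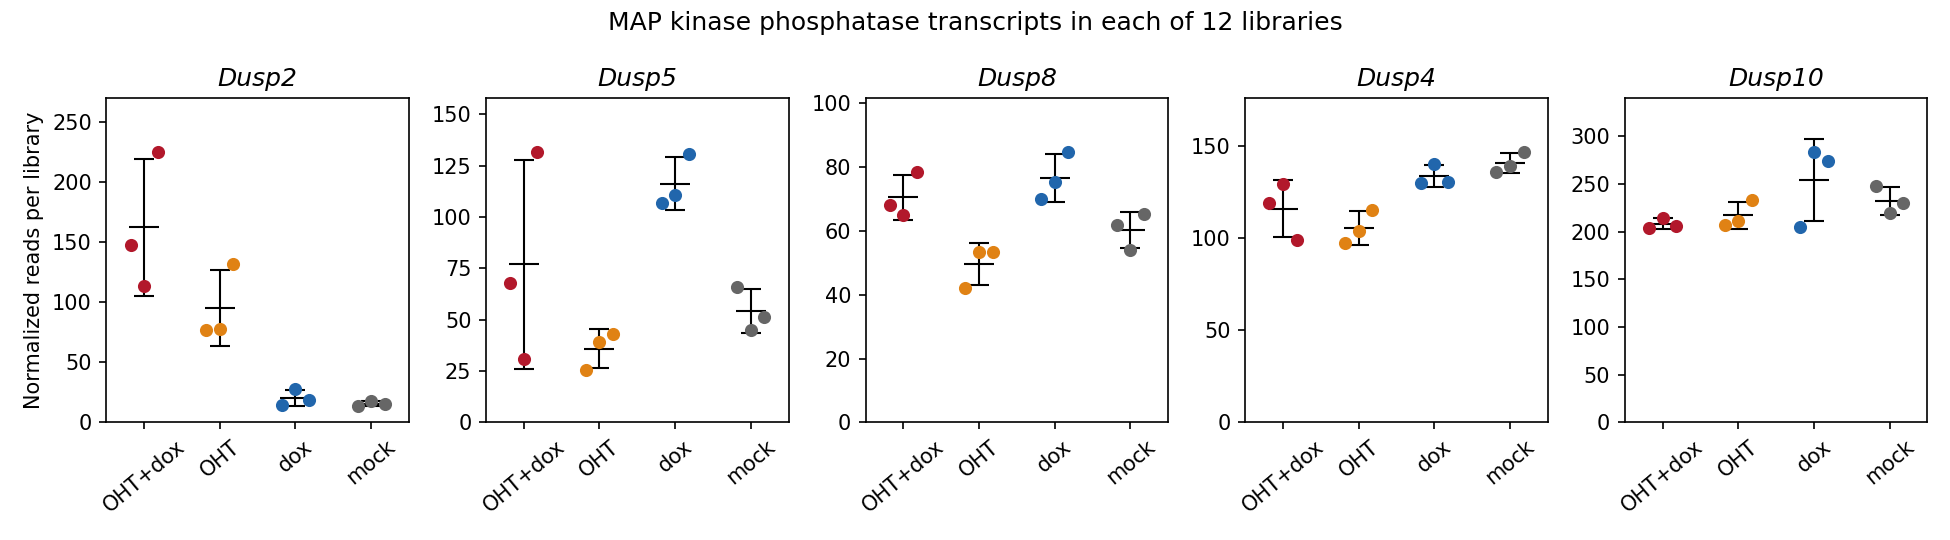
Normalized reads (y axis, from 0) of the 5 members with values per library, by group (x axis). Points are libraries, and bars give the mean and SD of 3 libraries. Dusp2 is high in all 6 libraries with OHT, Dusp5 and Dusp8 are lowest on average in OHT, and the OHT+dox libraries of Dusp5 run from 30.9 to 132.

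Dusp10, another phosphatase of JNK and p38, had 204, 215 and 205 normalized reads in the OHT+dox libraries and 207, 211 and 233 in the OHT libraries. In the dox libraries it had 205, 283 and 274, against 247, 219 and 229.6 in the mock libraries. The groups overlapped in every comparison but OHT+dox against mock, where the ratio of means was 0.897.

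The tested members were read against all 2985 genes in the same fit. Between OHT and dox, 3 of the 4 members tested passed, 1 higher and 2 lower, where 12.7% of all genes passed. Between OHT+dox and dox 1 of 4 passed, where 12.1% of all genes did. Between OHT+dox and OHT, 0 of 4 passed in limma, where 1.14% of all genes passed. An unadjusted p under 0.05 was found between OHT+dox and OHT for 3 of the 4 members and for 437 of the 2985 genes. Between OHT and dox it was found for 4 members and 793 genes, and between OHT+dox and dox for 1 member and 811 genes. The median log2 fold change of the 4 members was −0.48 in OHT against dox, −0.17 in OHT+dox against dox and 0.62 in OHT+dox against OHT, beside 0.11, −0.02 and −0.10 over all genes tested. These comparisons rest on the libraries in which the members were listed, so the calls are no independent evidence that the family differs from other genes.

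Whether OHT and dox together did more or less than their separate log2 effects added up was tested as an interaction. It was 0.41 ± 0.41 for Dusp2, 0.20 ± 0.20 for Dusp4, −0.21 ± 0.56 for Dusp5 and 0.16 ± 0.22 for Dusp8 (± SE). In limma 0 of 4 members and 0% of all genes passed, and 0 members and 88 genes had an unadjusted p under 0.05. With these standard errors, departures of that size could not be told from 0.

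**Figure D2:**
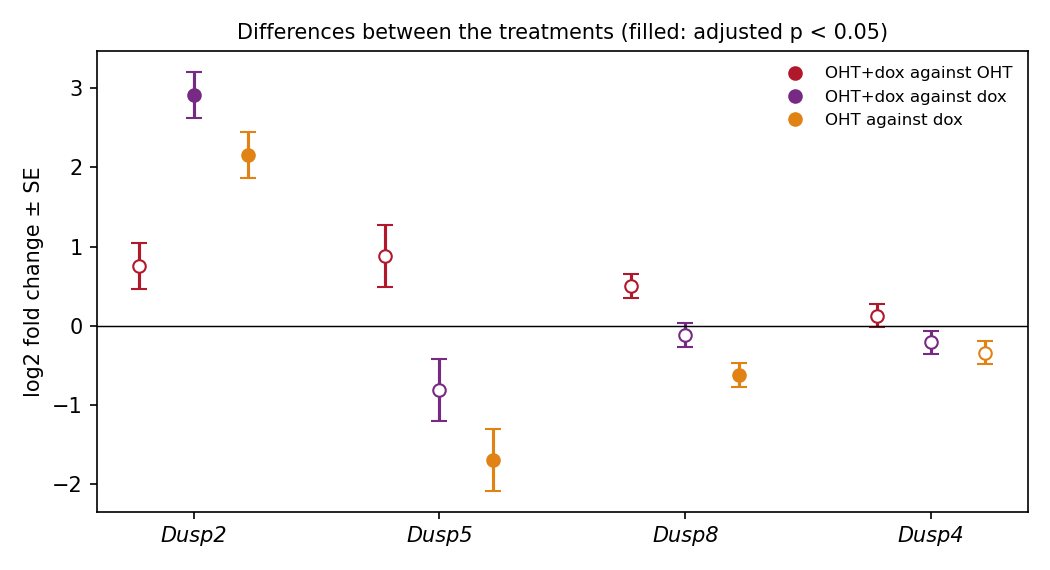
Log2 fold change (y axis, points, with standard errors as bars) of the 4 members tested (x axis) between treatments. Filled points passed at an adjusted p under 0.05. Dusp2 lies at 2.91 and 2.16 against dox, and Dusp5 at −1.70 and Dusp8 at −0.62 in OHT against dox.

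In the comparisons with mock, from which the members were listed, the counts only describe. With OHT+dox 1 of the 4 passed, Dusp2, where 30.8% of all genes did. The same gene was the 1 that passed with OHT (11.5% of all genes), and 0 passed with dox, where 1.61% of all genes passed in limma. An unadjusted p under 0.05 was found there for 2 of the 4 members and for 617 of the 2985 genes.

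For the remaining members only differences between treatments could be had. The mock libraries enter all 3 pooled means, so a difference between pooled means, once put on the scale of the OHT+dox comparison, is set by the treated libraries alone. A ratio of pooled means is then a lower bound of the fold between the treatments, whatever the mock level. These values have no spread between libraries beside them.

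Dusp1, an early response gene, had a pooled mean of 1026 with OHT+dox and mock, 943 with OHT and mock and 1286 with dox and mock. It was at least 1.25-fold lower with OHT+dox than with dox, and at least 1.36-fold lower with OHT than with dox. The mean difference was −688 normalized reads between OHT and dox, and 168 between OHT+dox and OHT.

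Dusp6, a cytoplasmic ERK phosphatase whose transcription follows ERK activity, had pooled means of 455, 404 and 538 in the same order. It was at least 1.33-fold lower with OHT than with dox, and at least 1.18-fold lower with OHT+dox than with dox. Dusp14 had 262, 214 and 263. It was at least 1.23-fold lower with OHT than with dox, and differed by −2.51 normalized reads between OHT+dox and dox. In both genes, as in Dusp1, Dusp4, Dusp5 and Dusp8, the pooled mean with OHT was the lowest of the 3 treatments and that with dox the highest.

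Dusp7, the closest relative of Dusp6 in this set, differed the other way between OHT and dox, with pooled means of 806, 798 and 714. It was at least 1.12-fold higher with OHT than with dox, and at least 1.13-fold higher with OHT+dox than with dox. Dusp16 had 607, 651 and 629.6, and the largest ratio between these pooled means was 1.07, which bounds the fold between treatments from below only.

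**Figure D3:**
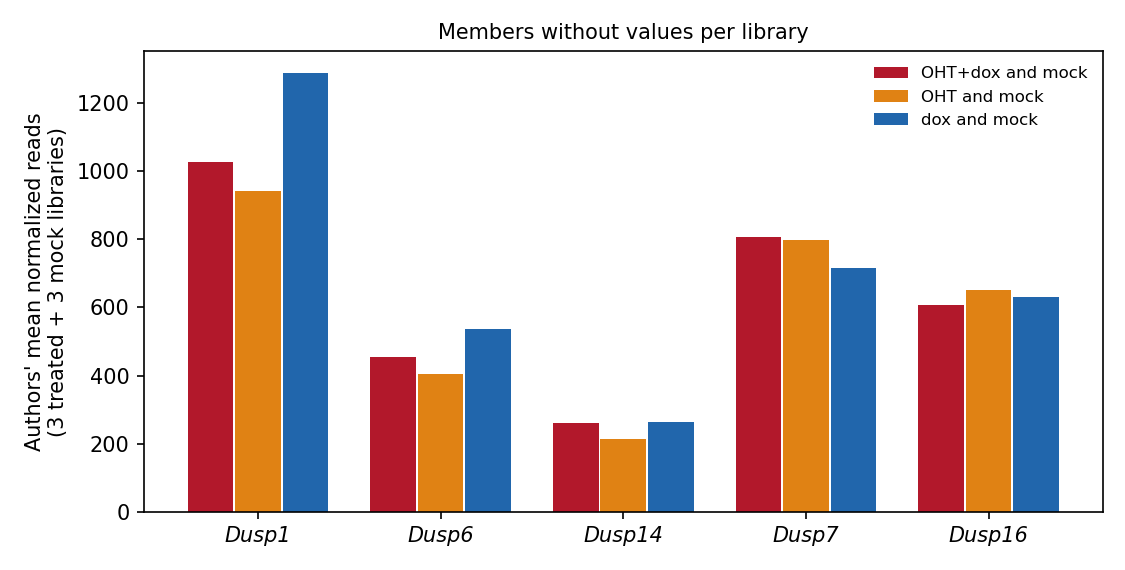
The authors' mean normalized reads (y axis, from 0) over 3 treated and 3 mock libraries, on the scale of the OHT+dox comparison, for the 5 members without values per library (x axis). Bars have no error because the table gives none. Dusp1, Dusp6 and Dusp14 are lowest with OHT (943, 404 and 214), and Dusp7 is lowest with dox (714).

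Over all 10 members, the pooled mean was at least 1.1 times higher with dox than with OHT for 6 (Dusp1, Dusp4, Dusp5, Dusp6, Dusp8 and Dusp14), where 10.6% of 12030 genes with pooled means of at least 10 passed this ratio. It was at least 1.1 times higher with OHT than with dox for 2 (Dusp2 and Dusp7), against 16.9% of all genes. With OHT+dox over OHT, 5 members passed (8.6% of all genes), and 0 the other way (10% of all genes). With OHT+dox over dox, 2 passed (18.3%), and 4 the other way (14.1%). The ratio has no error, and the same limit on independence holds.

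The kinase pathway upstream of and including the MAP kinases was counted by the same ratio. Of 23 MAP kinases, their kinases and upstream RAF and RAS genes, 21 had pooled means of at least 10. With dox over OHT 3 of them passed a ratio of 1.1 (10.6% of all genes), and with OHT over dox 1 did (16.9%). That gene, Map2k6, a kinase that activates p38, was the only one of the list with enough recovered reads to be tested. It had 73.4, 64.9 and 67.8 normalized reads in the OHT+dox libraries and 86.6, 116 and 129 in the OHT libraries. The dox libraries had 26.5, 29.99 and 29.2, against 59.7, 60.9 and 58.8 in the mock libraries. No treatment overlapped with mock or with another treatment. Map2k6 was higher with OHT+dox than with dox by 1.24 ± 0.16 on the log2 scale (adjusted p = 0.000452 from limma) and higher with OHT than with dox by 1.90 ± 0.16 (adjusted p = 1.46e-05).

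Of 19 other dual-specificity phosphatases and relatives, 4 could be tested. With OHT+dox against dox 0 rose and 1 fell, where 12.1% of all genes passed. With OHT against dox 0 rose and 1 fell, where 12.7% of all genes passed. In both cases the gene was Dusp18. It had 9.57, 6.99 and 7.86 normalized reads in the OHT+dox libraries and 7.22, 15.1 and 6.91 in the OHT libraries. Its dox libraries had 20.1, 22.7 and 13.2, against 25.2, 22.6 and 17.4 in the mock libraries. Its log2 fold change was −1.08 ± 0.28 in OHT+dox against dox (adjusted p = 0.0245 from limma) and −0.92 ± 0.28 in OHT against dox (adjusted p = 0.0473). Its reads were few, and these calls were not examined in the other settings.

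Transcripts that ERK signaling induces were counted in the same way. Of 20 listed, 18 had pooled means of at least 10. With dox over OHT 14 of them passed a ratio of 1.1 (10.6% of all genes), and with OHT over dox 1 did (16.9%). With OHT+dox over OHT, 9 passed (8.6% of all genes), and 3 the other way (10%). With OHT+dox over dox, 0 passed (18.3%), and 14 the other way (14.1%). Only 2 of the list could be tested, and 0 of them passed between treatments in limma. The median ratio of pooled means, OHT over dox, was 0.842 for these 18 transcripts and 0.856 for the 10 phosphatases. It was 0.989 for the 21 kinase pathway genes and 1.01 for all genes. The shared mock libraries draw each such ratio towards 1, by an amount that depends on the mock level of the gene. These medians are therefore not folds between the treated libraries.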

How the data were processed

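RNA-seq libraries of 12 samples in 4 groups were used. Per the labels, total RNA libraries were made without poly(A) selection. The submitters' processing notes name TopHat2 2.0.8, SAMtools, featureCounts 1.4.5-p1, DESeq2 and mm9. For the annotation and the strand setting, the sources used here give nothing, so overlapping genes cannot be told apart. The authors deposited, for 3 comparisons with mock, a mean signal (counts divided by DESeq2 size factors, over 6 libraries), and 9 columns of fold changes, adjusted p-values and calls, which were not used. The members and lists were chosen with earlier results of these data known. The rule for named genes took the 10 members, genes of the other lists that passed between treatments, and the 3 compared genes most like Dusp2.

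Genes with 1 read in all gave the weight of each library, since 1 read adds 1 divided by 6 size factors to the mean. A library that enters all 3 columns is a mock one, and a library that enters 1 column is of that treatment. Whole counts for 12 libraries that match all 3 means to the last digit were then searched by lattice reduction, and accepted at a probability of at least 0.99 under a negative binomial model that favours replicates that lie close together. Residuals had an SD of 0.277 to 0.305 of the last digit, against 0.289 for rounding alone. This method, its weights over dispersions (several were tried), and the limits of 0.99 and of a pooled mean of 150 were set after seeing the data and the members' recoveries. Recovery fell from 97.4% at means of 100 to 150 to 43.3% at 250 to 300. No deposited column holds counts, and count models were not run on the recovered ones.

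Log2(normalized reads + 1) of 2985 genes with a mean of at least 10 was fitted with limma 3.58.1 in R 4.3.3 over all 12 libraries, with Benjamini-Hochberg adjustment and a threshold of 0.05. A fold on this scale understates changes of low genes. Genes with any pooled mean above 150 were left out, so genes strongly induced by a treatment can be missing. Scripts used Python 3.11.15, and were tested on simulated data. A small share of real means that had been altered, so that no counts lay behind them, was accepted too, so a recovered count is an inference. Alternatives were other scalings, pseudocounts of 0.5 and 5, no minimum mean, the groups compared only, an intensity trend, a fold minimum of 0.5, a limit of 300 and leaving out each library. RefSeq promoters were of GRCm38.p6, and their coordinates are not those of mm9.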

Additional observations from a re-analysis of the deposited data

How the results depend on the processing

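No paired analysis was possible because the recovered libraries carry no replicate number of the labels. DESeq2 was not run: the deposited columns are not counts, and the recovered counts were fitted with limma alone. The number of members that passed changed in these settings. Between OHT and dox it was 1 without a minimum mean (3 otherwise), where Dusp5 (adjusted p = 0.0772) and Dusp8 (0.174) no longer passed, and 1 to 3 when each library was left out. It was 2 with the groups compared only, where Dusp8 had an adjusted p of 0.0562. The members were listed by their values against mock, so the counts against mock only describe. With OHT against mock the number was 2 with an intensity trend and 2 with a limit of 300, a setting chosen after seeing the data. With dox against mock it was 1 with an intensity trend and 1 with the groups compared only. Between OHT+dox and dox it was 1 to 2 when each library was left out. The interaction of Dusp5 was −0.21, ran from −0.71 to 0.31 when each library was left out, and turned to 0.31 without the second OHT+dox library. Over all genes, 34 passed between OHT+dox and OHT, and 3 to 35 did when a library was left out. With dox against mock 48 passed, and 9 to 79 did. The direction of every other member in the comparisons between treatments was kept in the settings run.

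Scaling moved the median of OHT against dox over all genes, which was 0.11, to −0.01 with equal sums and with upper-quartile scaling. The genes called in it were 246 higher and 133 lower, and 162 and 184 with equal sums. Between OHT+dox and dox, 222 were higher and 140 lower, and 209 and 201 with equal sums. The members' calls were kept under both scalings. For 5 members the values are pooled means, with no spread between libraries behind them, and the recovered counts of Dusp10 are less sure than those of the other 4.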
